A study of Homo sapiens with 8 samples.

Results

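The 9 genes described here, MYC, ACTB, CD44, CTNNB1, LAMB2, BTRC, NRAS, PEG10 and MARCKSL1, encode mRNAs long known as targets of the IGF2BP proteins. A peak was taken as a member's when the deposited annotation assigned it to one of these genes. The 9 genes, of 19767 with a peak, held 964 of 1843422 peaks. They held 296 and 281 peaks in PTBP1 replicates 1 and 2, and 210 and 177 in IGF2BP2 replicates 1 and 2.

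The series used enhanced crosslinking and immunoprecipitation with sequencing (eCLIP), which recovers RNA fragments crosslinked to a chosen protein, in A172, an established human glioma cell line. Its 8 samples form 4 groups of 2, an immunoprecipitate (IP) and an input for PTBP1 and the same pair for IGF2BP2. Cells of every group received 500 µM 4-thiouridine for 3 h and 365 nm light, and membrane pieces of about 55 to 130 kDa were cut for PTBP1 and 65 to 140 kDa for IGF2BP2. The comparison rests on the peak lists of the 4 IP libraries; separate lists of the inputs were not used here.

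The IGF2BP proteins, also called IMPs or VICKZ proteins, bind mature and precursor mRNAs through RRM and KH domains. They are best known for the transport, storage and stability of the mRNAs they coat, and they are abundant in embryonic tissues and in many tumours. PTBP1 is a nuclear and cytoplasmic protein that binds pyrimidine-rich RNA and is best known as a regulator of alternative splicing, which makes it a second protein with a different repertoire in the same cells.

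IGF2BP2 had enriched sites in the 3′ UTRs of 5 of the 9 mRNAs. Enriched PTBP1 sites lay mostly in introns, as they did over the whole PTBP1 lists, and 8 of 9 of these were in CD44. Each peak carries a log2 ratio of IP over input reads, given here on a scale common to all chromosomes, and a −log10 p. A peak is called enriched when both are at least 3, and a region is called enriched when overlapping peaks of both replicates are. IGF2BP2 had 11 enriched regions in 6 of the 9 genes (ACTB, CD44, CTNNB1, BTRC, NRAS and MARCKSL1), and 7 of these regions lay in a 3′ UTR, 4 in an intron and 0 in coding sequence. PTBP1 had 11 enriched regions in 4 of the 9 genes (ACTB, CD44, BTRC and NRAS), with 9 in introns, 1 in coding sequence and 1 in a 3′ UTR. Over whole lists, introns held 61.9% of the enriched PTBP1 peaks and 70.3% of the enriched IGF2BP2 peaks (means of 2 libraries). The 3′ UTRs held 2.45% and 15.1% of them. MYC, LAMB2 and PEG10 had none for either protein. At a stricter bar, a log2 of 4 and a −log10 p of 5, IGF2BP2 regions remained in 3 genes and PTBP1 regions in 1.

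All 9 members were among the 15145 genes that reached 10 peaks. Of those genes 24.9% had such a region for IGF2BP2 and 18.1% for PTBP1, and of all 19767 genes with a peak 19.4% and 14% did. At the stricter bar the shares of the 15145 genes were 7.78% and 6.52%. An enriched IGF2BP2 region in the 3′ UTR was found in 8.83% of these genes and in 5 members. The 3′ UTR share for PTBP1 was 0.792%, and ACTB was the 1 member with such a region. In coding sequence 7.03% of the genes had one for PTBP1, with BTRC as the 1 member, and 2.33% for IGF2BP2, with 0 members. Regions of both proteins were found in 8.08% of these genes and in 4 members. The members were chosen with such results known, so these shares are given as a description without a test.

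In raw reads the bar for enrichment differed between the proteins, because the log2 scale of each library has its own constant. The p of a peak takes the ratio expected without enrichment from this constant. A log2 of 3 thus stood equally far above the expected ratio in every library. A log2 of 3 took 9.87 and 8.44 IP reads per input read in PTBP1 replicates 1 and 2, but 2.40 and 2.14 in those of IGF2BP2. Over whole lists, 2.91% and 2.81% of the PTBP1 peaks and 9.18% and 9.35% of the IGF2BP2 peaks were enriched. Scores are therefore ranked within a list and not tested across lists. The members' peaks with recovered reads rested on a median of 37 and 28 IP reads for PTBP1 and 6 in both IGF2BP2 libraries.

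**Figure D1:**
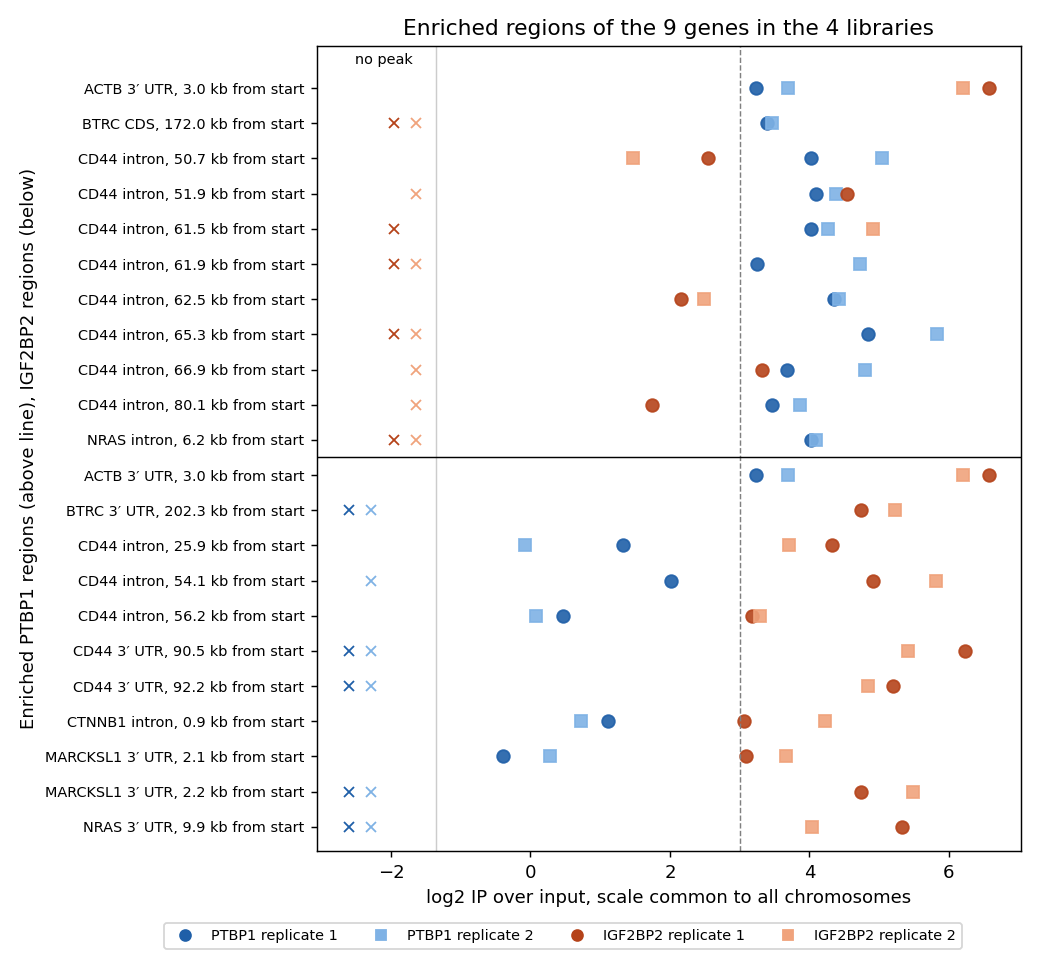
Enriched regions of the 9 genes (rows, with their distance from the gene start) against the log2 ratio of IP over input reads in each of the 4 libraries; crosses mark libraries without a peak there, and the dashed line marks a log2 of 3. The ACTB 3′ UTR rows are the only ones with all 4 libraries past the line, and 5 of the 7 IGF2BP2 rows in 3′ UTRs have no PTBP1 peak.

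Most enriched regions of one protein were not enriched for the other. Of the 11 enriched IGF2BP2 regions, 5 overlapped a PTBP1 peak of both replicates, 1 a peak of 1 replicate and 5 none. The 5 without a PTBP1 peak were all in 3′ UTRs. Of the 11 enriched PTBP1 regions, 3 overlapped an IGF2BP2 peak of both replicates, 4 a peak of 1 replicate and 4 none. The single region enriched for both proteins in all 4 libraries was in ACTB. Such overlaps were not counted over all genes, so these counts do not set the members apart from other genes.

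ACTB encodes beta-actin of the cytoskeleton. Its mRNA carries the zipcode, a localization element just after the stop codon that IGF2BP1, the chicken ZBP1, binds. In A172 the leading ACTB site of both proteins lay in the 3′ UTR, at chr7:5527566-5527613 (hg38, minus strand), 418 nt before the 3′ end of the gene. Its log2 ratio was 6.57 and 6.21 in the IGF2BP2 libraries and 3.23 and 3.69 in the PTBP1 libraries. In the IGF2BP2 lists 0.0358% and 0.107% of all peaks had a log2 at least as high, which places the site near the top of both. In the PTBP1 lists 3.27% and 1.82% of all peaks did.

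The PTBP1 peaks at this ACTB site held 405 IP and 35 input reads in replicate 1 and 272 and 20 in replicate 2. The −log10 p of both IGF2BP2 peaks stood at 400, the upper limit of the deposited values, so their reads could not be recovered. A second IGF2BP2 site of the ACTB 3′ UTR, at chr7:5527197-5527254, reached a log2 of 3.08 in replicate 1 and 2.90 in replicate 2, on either side of the bar for enrichment. There PTBP1 replicate 2 had a peak at -1.58 and replicate 1 had none.

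No library had an ACTB peak in the 173 nt between the last base annotated as 3′ UTR in a peak, 5527613, and the first annotated as coding sequence in one, 5527787. The position of the stop codon is not in the files, so the place of the zipcode within this gap was not determined. Coding sequence held 25, 29, 13 and 12 ACTB peaks in PTBP1 replicates 1 and 2 and IGF2BP2 replicates 1 and 2, and 2 of them, both in IGF2BP2 replicate 1, were enriched. How reads that also match the near-identical coding sequence of ACTG1 or actin pseudogenes were placed is not given in the sources used here, so values in coding sequence are uncertain.

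**Figure D2:**
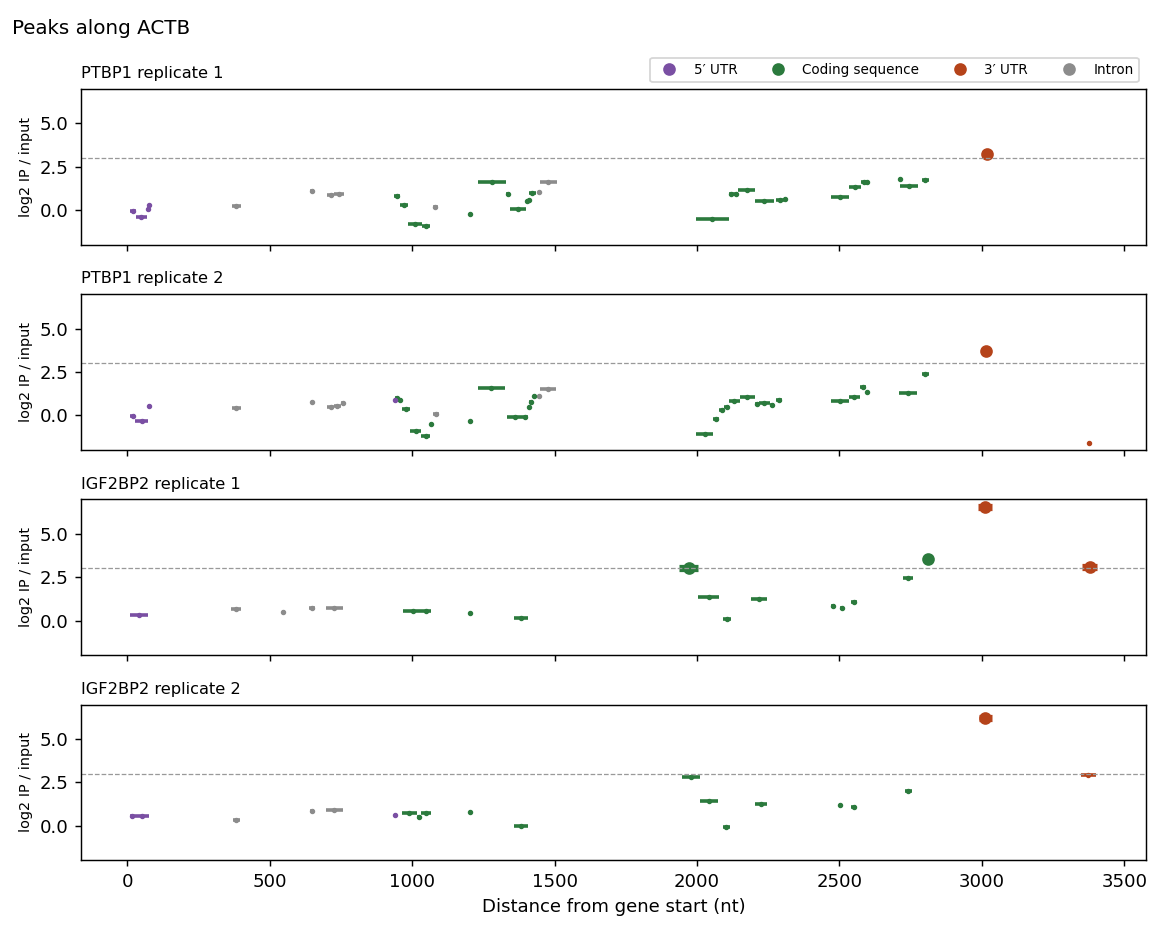
ACTB peaks of the 4 libraries by distance from the gene start (nt) and log2 ratio of IP over input reads, coloured by annotated transcript region; large symbols are enriched peaks and the dashed line marks a log2 of 3. The 3′ UTR site near 3000 nt stands above every other ACTB peak in each library, at 3.23 and 3.69 for PTBP1 and 6.57 and 6.21 for IGF2BP2.

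CD44 encodes the hyaluronan receptor of the cell surface, whose pre-mRNA is spliced into many isoforms and whose 3′ UTR is a known target of IGF2BP proteins. It held the most peaks of the 9 genes, with 101 and 108 for PTBP1 and 85 and 69 for IGF2BP2. PTBP1 had 8 enriched regions, all in introns, within 29.5 kb at chr11:35189858-35219353 (plus strand). IGF2BP2 had 5 enriched regions, of which 3 were in introns and 2 in the 3′ UTR, and 2 of the intronic regions lay between the PTBP1 regions.

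The highest PTBP1 site of CD44 was at chr11:35204512-35204620. Its log2 was 4.84 in replicate 1, from 106 IP and 3 input reads, and 5.83 in replicate 2, from 60 and 1. In their lists 0.281% and 0.0516% of all peaks were at least as high, and neither IGF2BP2 library had a peak there. A neighbouring site at chr11:35201674-35201793 held 101 IP to 4 input reads and 68 to 3, and a log2 of 4.36 and 4.43. IGF2BP2 peaks at this neighbour held 4 and 3 IP reads and were not enriched.

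2 of the 8 PTBP1 regions also held an enriched peak in 1 IGF2BP2 library. At chr11:35191108-35191228 IGF2BP2 replicate 1 reached 4.55 with 7 IP reads to 1 input read, and replicate 2 had no peak. At chr11:35200656-35200756 replicate 2 reached 4.90 with 8 reads to 1, and replicate 1 had no peak. Neither met the requirement of an enriched peak in both replicates.

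The leading IGF2BP2 site of CD44 was in the 3′ UTR, at chr11:35229652-35229728, 2674 nt before the 3′ end of the gene. Its log2 was 6.23 from 45 IP and 2 input reads in replicate 1, and 5.41 from 34 and 3 in replicate 2. In their lists 0.075% and 0.516% of all peaks were at least as high. The second 3′ UTR site, at chr11:35231344-35231381, reached 5.20 from 22 reads to 2 and 4.84 from 23 to 3. PTBP1 had no peak at either site.

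The same 3′ UTR also held a stretch where all 4 libraries had a peak and none was enriched, at chr11:35231038-35231103. The log2 there was 0.72 and 0.64 for PTBP1 and 0.48 and 1.40 for IGF2BP2. Peaks in the CD44 3′ UTR numbered 11 in IGF2BP2 replicate 1 and 4 in replicate 2, against 1 in each PTBP1 library. The strongest intronic IGF2BP2 site, at chr11:35193294-35193340, had 9 reads to 1 and 15 to 1, for a log2 of 4.91 and 5.81.

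Coding sequence of CD44 held a PTBP1 site at chr11:35176592-35176707 on either side of the bar. Replicate 1 had 217 IP and 20 input reads there, a log2 of 3.14, and replicate 2 had 165 and 23, a log2 of 2.77. IGF2BP2 peaks overlapping it had a log2 of 0.52 and -0.07.

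**Figure D3:**
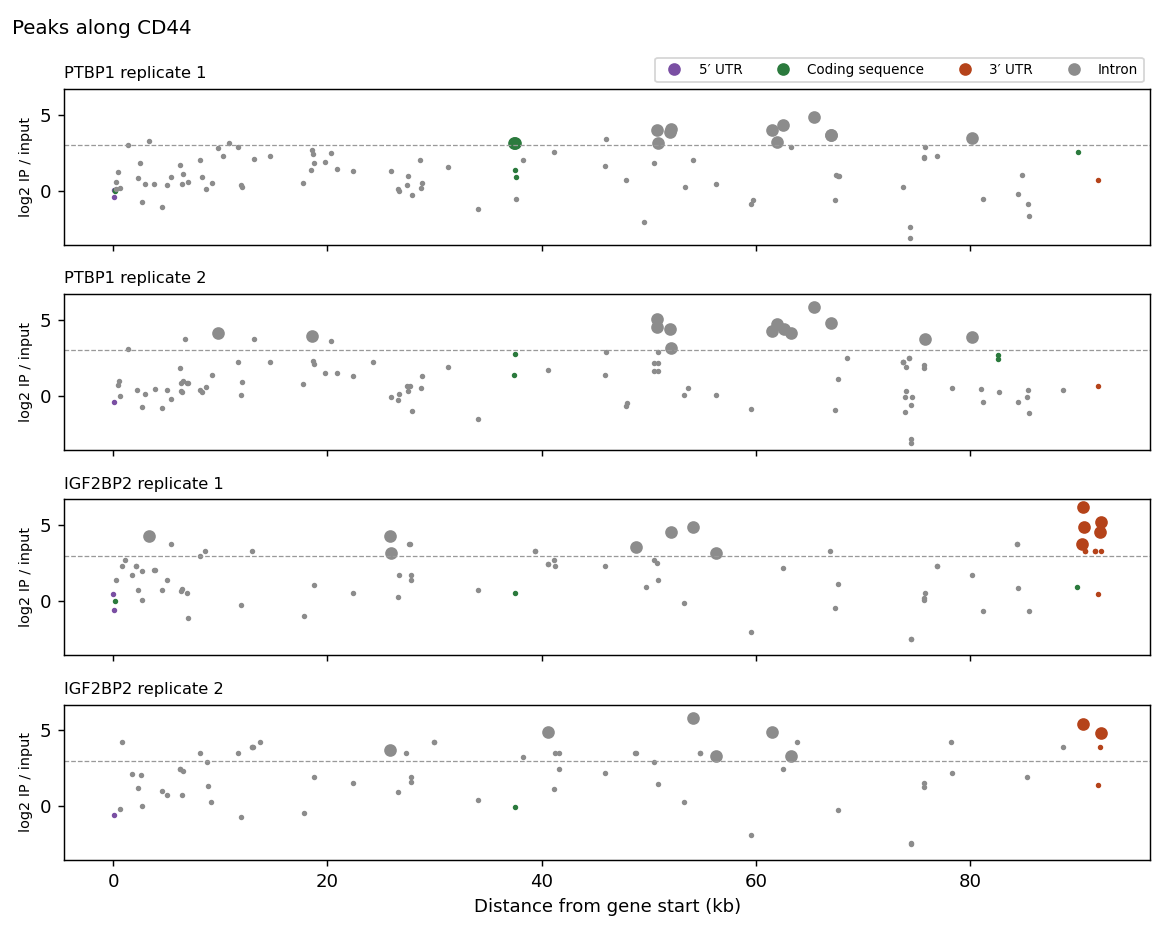
CD44 peaks of the 4 libraries by distance from the gene start (kb) and log2 ratio of IP over input reads, coloured by annotated transcript region; large symbols are enriched peaks and the dashed line marks a log2 of 3. Of the 13 and 14 enriched PTBP1 peaks, 11 and 12 lie in a stretch of 29.5 kb, and the enriched 3′ UTR peaks at the end of the gene are those of IGF2BP2, up to 6.23 and 5.41.

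LAMB2 encodes the beta-2 chain of laminin in basement membranes. Its peaks lay mainly in coding sequence, with 20 and 20 for PTBP1 and 23 and 18 for IGF2BP2. None of these coding peaks was enriched. IGF2BP2 had 1 enriched intronic peak in each replicate, with 6 and 7 IP reads to 1 input read, but the 2 did not overlap. LAMB2 is thus the member with many peaks in all 4 libraries and no enriched region.

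NRAS, CTNNB1 and BTRC belong to growth signalling. NRAS encodes a small GTPase of the RAS family. It had few peaks, 6 and 13 for PTBP1 and 3 and 3 for IGF2BP2, yet 1 enriched region for each protein. The IGF2BP2 site was in the 3′ UTR, at chr1:114706874-114706917 (minus strand), 2405 nt before the gene's 3′ end, with a log2 of 5.32 from 24 IP and 2 input reads and 4.04 from 22 and 5. The PTBP1 site was in an intron, at chr1:114710471-114710586, with 4.02 from 20 reads to 1 and 4.09 from 18 to 1. Neither protein had a peak at the site of the other.

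CTNNB1 encodes beta-catenin, the effector of canonical Wnt signalling and a partner of cadherins. Its single enriched region was intronic, at chr3:41200435-41200470 (plus strand), where IGF2BP2 reached 3.06 from 10 IP and 4 input reads and 4.23 from 10 and 2. PTBP1 peaks there stood at 1.11 and 0.73. In the 3′ UTR of CTNNB1, at chr3:41239690-41239715, IGF2BP2 replicate 1 reached 4.55 with 7 reads to 1, whereas replicate 2 had 3 reads to 3 and a log2 of 1.90.

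PTBP1 replicate 1 was enriched at a pair of CTNNB1 coding sites, with a log2 of 3.16 and 4.22, and replicate 2 had overlapping peaks at 2.73 and 2.86. These sites thus missed the requirement through 1 replicate.

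BTRC encodes the F-box protein beta-TrCP1, which marks beta-catenin and other substrates for destruction. Its coding sequence is a known binding region of IGF2BP1. Neither IGF2BP2 library had a peak in the coding sequence of BTRC, and the enriched IGF2BP2 region lay in the 3′ UTR, at chr10:101556329-101556367 (plus strand), 946 nt before the 3′ end of the gene. It had 8 IP reads to 1 input read in replicate 1, a log2 of 4.74, and 10 to 1 in replicate 2, a log2 of 5.23. PTBP1 had no peak at this site.

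The enriched PTBP1 region of BTRC was in coding sequence, at chr10:101526080-101526195, with a log2 of 3.40 from 26 reads to 2 and 3.47 from 35 to 3. PTBP1 also had a 3′ UTR site at chr10:101553997-101554094 that rested on more reads, 92 to 14 and 96 to 18, with a log2 of 2.41 and 2.34, under the bar. In raw reads the same ratio would have passed for an IGF2BP2 peak, because the ratio expected without enrichment was lower in those libraries.

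MYC encodes a transcription factor of cell growth. The last part of its coding sequence, the coding region determinant, is a classical binding element of IGF2BP1. MYC held 14 and 12 peaks for PTBP1 and 12 and 13 for IGF2BP2, none of them annotated as 3′ UTR. Coding peaks of MYC were split into 2 groups at their widest gap. An intronic peak of PTBP1 replicate 2, at chr8:127739458-127739489, lay before the second group, which began at 127740396. It lay after a coding peak of IGF2BP2 replicate 2 at 127738571-127738606. Intronic sequence thus lies between the 2 groups, and whether binding differs between them was not tested. The group toward the 5′ end held 8 and 7 PTBP1 peaks and 4 and 7 IGF2BP2 peaks, and the other group held 3 and 2 PTBP1 peaks and 0 IGF2BP2 peaks in both replicates. The end of the coding sequence is not given in the files, so these peaks were not placed against the coding region determinant.

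The reproducible IGF2BP2 signal of MYC with most reads was in the 5′ UTR, where all 4 libraries had a peak. IGF2BP2 reached a log2 of 1.79 from 29 IP and 28 input reads and 1.85 from 27 and 28, and PTBP1 stood at -0.89 and -0.58. A nearby 5′ UTR peak at 3.32, from 9 reads to 3, was enriched in IGF2BP2 replicate 1 alone. No MYC region met the requirement for either protein.

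PEG10, an imprinted gene derived from a retrotransposon, had 6 and 4 peaks for PTBP1 and 4 and 0 for IGF2BP2. No peak of one replicate overlapped a peak of the other for either protein. The median reads per PEG10 peak were 6 and 4 for PTBP1 and 3 in IGF2BP2 replicate 1. A reproducible PEG10 site was thus not found for either protein, and the reason was not tested.

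MARCKSL1 encodes a membrane-bound regulator of actin related to MARCKS. Its IGF2BP2 peaks clustered in the 3′ UTR, with 4 in each replicate, against 1 in each PTBP1 library. The site at chr1:32334025-32334047 (minus strand) reached a log2 of 4.74 from 8 IP reads to 1 input read and 5.49 from 12 to 1, with no PTBP1 peak. The site at chr1:32334118-32334156 reached 3.09 from 23 to 9 and 3.66 from 27 to 8. PTBP1 peaks overlapped this second site at -0.39 and 0.28.

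2 further MARCKSL1 sites of the 3′ UTR were found in both IGF2BP2 replicates and fell short in 1 or both. One stood at 2.98 and 2.32, and the other at 2.74 in replicate 1 and 5.61 in replicate 2.

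Of the members' peaks 6.41% were enriched for PTBP1, beside 2.86% over the lists, and 11.6% for IGF2BP2, beside 9.26% (means of 2 libraries). CD44 alone held 13 of the 19 and 14 of the 18 enriched PTBP1 peaks in replicates 1 and 2. Of the enriched IGF2BP2 peaks it held 12 of 26 and 8 of 19. Of the members' 3′ UTR peaks of IGF2BP2, 12 of 25 (48%; 95% Wilson interval 30.0% to 66.5%) were enriched in replicate 1 and 9 of 15 (60%; 35.7% to 80.2%) in replicate 2. The mean was 54.0% ± 8.49 (SD, n = 2), and over all 3′ UTR peaks of the lists it was 20.9%. In introns the members' IGF2BP2 peaks stood at 8.87% ± 0.20 (SD, n = 2) beside 8.74% over the lists. In coding sequence they stood at 2.17% ± 3.07 (SD, n = 2) beside 5.57%.

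The members' PTBP1 peaks were enriched at 7.79% ± 1.63 (SD, n = 2) in introns, beside 2.40% over the lists. CD44 held 11 of the 13 enriched intronic peaks in replicate 1 and 14 of the 16 in replicate 2. It held 91 of the 196 and 102 of the 179 intronic peaks, so this excess describes CD44 and not the members at large. In 3′ UTRs the members' PTBP1 peaks stood at 11.8% ± 0.98 (SD, n = 2), 1 of 8 and 1 of 9 peaks, beside 2.18%. In coding sequence they stood at 4.02% ± 3.87 (SD, n = 2) beside 5.73%. The intervals cover counting error only, and neighbouring peaks of 1 gene, some of which directly adjoin, are not independent.

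**Figure D4:**
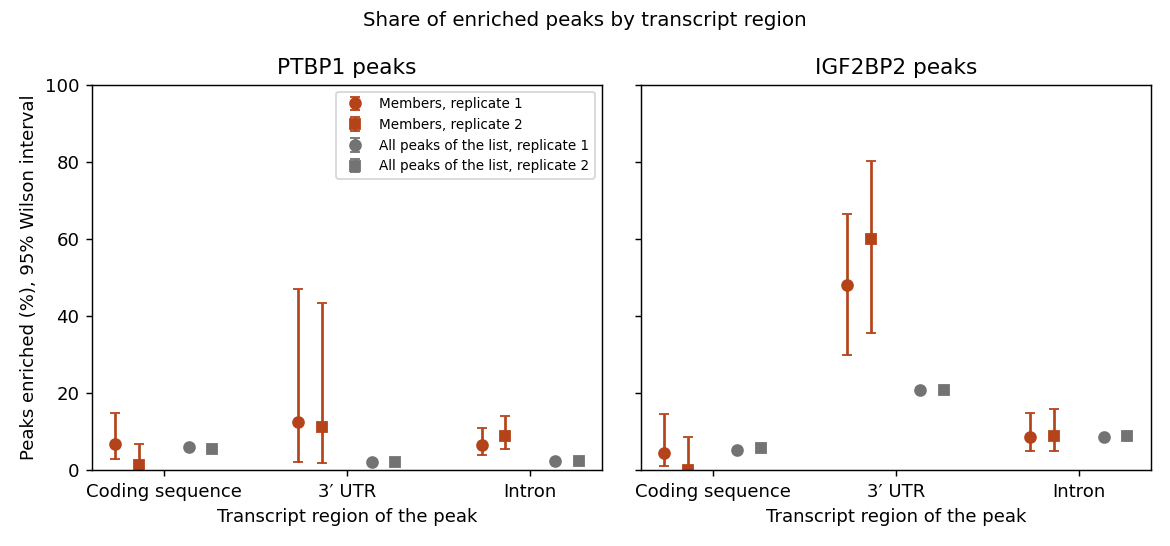
Percent of peaks that are enriched, by annotated transcript region (x axis) and library, for the 9 genes and for all peaks of the same list; bars are 95% Wilson intervals. The members' 3′ UTR peaks of IGF2BP2 stand at 48% and 60%, above the 20.9% of the lists, and the intronic PTBP1 peaks at 6.63% and 8.94%, above 2.42% and 2.37%. CD44 holds 11 of the 13 and 14 of the 16 enriched intronic PTBP1 peaks of the members.

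The 3′ UTR share of the members' peaks was 2.70% and 3.20% in the PTBP1 libraries and 11.9% and 8.47% in the IGF2BP2 libraries, and these values did not overlap between the proteins. The PTBP1 mean was 2.95% ± 0.35 (SD, n = 2), beside 3.21% over whole lists. The IGF2BP2 mean was 10.2% ± 2.43 (SD, n = 2), beside 6.70% over whole lists. Coding sequence held 26.4% ± 1.95 (SD, n = 2) of the members' PTBP1 peaks, against 13.4% over all peaks. For IGF2BP2 it held 22.5% ± 0.89 (SD, n = 2), against 9.21%. Of the 74 and 78 coding PTBP1 peaks, ACTB held 25 and 29 and LAMB2 20 and 20. Of the 46 and 41 coding IGF2BP2 peaks, ACTB held 13 and 12 and LAMB2 23 and 18. ACTB and LAMB2 thus held most of these peaks, and the ACTB values in coding sequence are uncertain.

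A replicate found the members' PTBP1 peaks again more often than their IGF2BP2 peaks. Of the PTBP1 peaks 67.9% and 72.2% overlapped a peak of the other replicate, and of the IGF2BP2 peaks 50.5% and 59.3% did. Over all peaks the means were 58.6% and 49.9%. Among peaks with at least 10 recovered IP reads the members' shares were 82.8% and 88.1% for PTBP1 and 86.5% and 87.5% for IGF2BP2.

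In the number of peaks per gene, 1 of the 9 members was called different between the proteins, and other ways of counting called 4 or 5. Peak density is a gene's peaks per 10000 peaks of its list, on a log2 scale with 0.5 added to the peaks. Some deposited peaks directly adjoin. In IGF2BP2 replicate 1 the BTRC peaks at chr10:101355204-101355224 and chr10:101355225-101355269 each held 7 IP reads to 1 input read. A number of peaks thus also depends on how a stretch was divided into peaks. Of all genes tested with limma and Benjamini-Hochberg adjustment, 12.7% were called higher in PTBP1 and 12.3% higher in IGF2BP2, 25% in all. Of the 9 members 0 were called higher in PTBP1 and 1, LAMB2, higher in IGF2BP2, and LAMB2 was also the 1 member with an unadjusted p under 0.05. The median difference, PTBP1 minus IGF2BP2, was -0.093 for the members and -0.014 over all genes.

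LAMB2 had 25 and 24 peaks for PTBP1 and 37 and 22 for IGF2BP2, or 0.416 and 0.445 against 1.02 and 0.645 per 10000 peaks. All IGF2BP2 values were above all PTBP1 values, although replicate 1 stood well above replicate 2. The log2 difference was -0.91 ± 0.26 (SE), with a limma adjusted p of 0.041. The call did not hold without PTBP1 replicate 1 (adjusted p = 0.0823), PTBP1 replicate 2 (0.054) or IGF2BP2 replicate 1 (0.0516). Among peaks with at least 10 recovered IP reads, of which LAMB2 kept 25 and 23 for PTBP1 and 3 and 4 for IGF2BP2, the difference turned to 0.34, while the median of all genes moved to 0.64.

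MYC density was 0.233 and 0.223 per 10000 in the PTBP1 libraries and 0.331 and 0.381 in those of IGF2BP2, a log2 difference of -0.64 ± 0.29 (SE) that did not pass (limma adjusted p = 0.14). BTRC stood the other way, at 1.30 and 0.947 against 0.827 and 0.850, a difference of 0.39 ± 0.19 (SE) that did not pass either (limma adjusted p = 0.168). CD44, the member with most peaks, differed by -0.25 ± 0.14 (SE; limma adjusted p = 0.219). In 7 of the 9 members the libraries of the 2 proteins did not overlap, CTNNB1 and PEG10 being the exceptions, and in 67.2% of all genes tested they did not either, so the count is near the background.

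ACTB, NRAS, MARCKSL1, CTNNB1 and PEG10 had log2 differences of 0.29, 0.73, -0.60, -0.093 and 1.16, with limma adjusted p-values from 0.289 to 0.814. ACTB turned to -0.93 when nucleotides covered by peaks were counted in place of peaks, and to -1.44 with peaks of at least 10 recovered IP reads, and both passed (limma adjusted p = 0.0107 and 0.00552). The direction for ACTB therefore depends on what is counted.

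Counting covered nucleotides, limma called 36.5% of all genes and 5 of the 9 members: ACTB, LAMB2 (-0.99), CD44 (-0.44), MARCKSL1 (-1.05) and BTRC (0.67, adjusted p = 0.0346). With peaks of at least 10 recovered IP reads it called 50.4% of all genes and 4 of 7 members tested: ACTB, MARCKSL1 (-2.18), CTNNB1 (-1.17) and BTRC (2.17, adjusted p = 0.0465). BTRC was thus higher in PTBP1 and MARCKSL1 higher in IGF2BP2 under both. With at least 10 recovered IP reads, however, BTRC kept 20 and 17 peaks for PTBP1 and only 0 and 1 for IGF2BP2. MARCKSL1 kept 5 and 7 for PTBP1 and 5 and 6 for IGF2BP2. The median of all genes in that setting was 0.64, toward PTBP1. The labels do not say whether replicates came from separate cultures, so the p-values cover the spread among these 4 libraries, which may be technical.

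**Figure D5:**
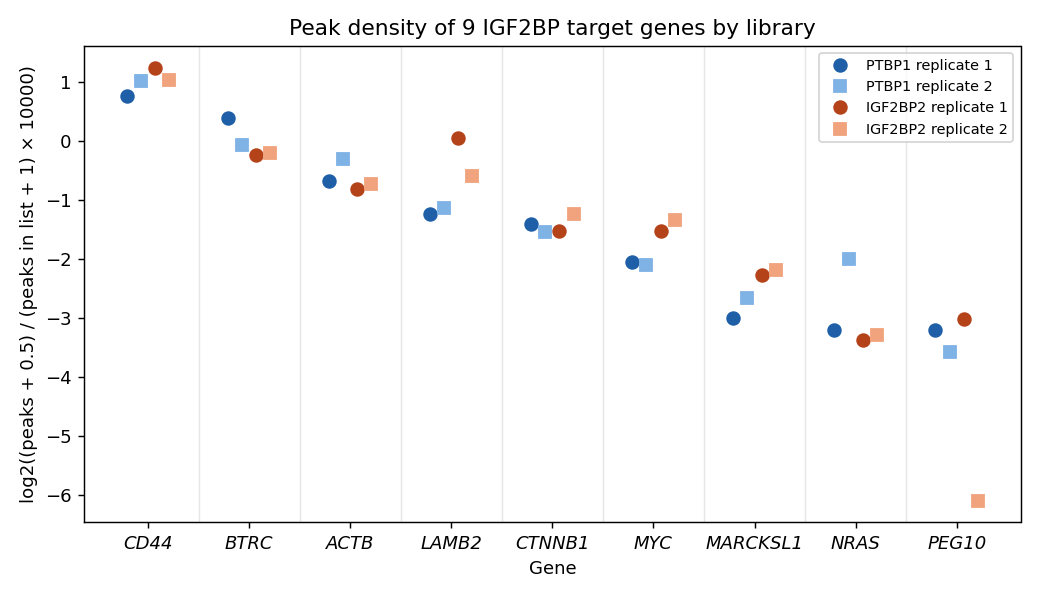
Peak density of the 9 genes in the 4 IP libraries, as log2((peaks + 0.5)/(peaks in the list + 1) × 10000), 1 point per library. LAMB2 is the single gene called different (log2 difference -0.91), and PEG10 in IGF2BP2 replicate 2 is the lowest point, with 0 peaks.

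A wider list of 22 other RNAs reported as IGF2BP targets, 1 of them the noncoding H19, was counted the same way, and 20 had a peak. Enriched regions of IGF2BP2 were found in 12 and those of PTBP1 in 3. Of all genes with a peak, 19.4% and 14% had such regions. IGF2BP2 had 40 enriched regions in them, 36 in 3′ UTRs of 10 genes. PTBP1 had 21, of which 14 lay in coding sequence, all in MKI67, a proliferation marker, and 7 in introns.

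In peak density 17 of the 22 could be tested, and limma called 1 higher in PTBP1 and 5 higher in IGF2BP2. The other 11 were uncalled, and the median log2 difference of the 17 was -0.43. Of all genes tested, 12.7% were called higher in PTBP1 and 12.3% higher in IGF2BP2. CDK6, a cell cycle kinase, was higher in PTBP1 by 0.43 ± 0.11 (SE; limma adjusted p = 0.0277). H19, an imprinted noncoding RNA, differed by -1.59 ± 0.47 (SE; limma adjusted p = 0.046). SRF, a transcription factor of cytoskeletal genes, differed by -0.95 and FOXK1, a forkhead factor, by -0.64.

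The labelled cell type was checked with markers, counted as present when an exon held a reproducible region. VIM, NES, EGFR and CD44 were present and GFAP, S100B and SOX2 were not, 4 of 7 glial or glioma markers. Of the 4 markers of other cell types, PTPRC, EPCAM, PECAM1 and ALB, 0 were present. CD44 is itself a member, and a marker could count only through peaks of PTBP1 or IGF2BP2. These counts therefore do not establish the cell type. Peaks also depend on how much of an mRNA the cells hold, and a gene's level was not analysed apart from the input reads behind its peaks.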

How the data were processed

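Peak lists of 4 eCLIP IP libraries were used. The submitters' processing notes name HISAT2 and hg38. Which peak caller and gene annotation were used is not given. The authors deposited a −log10 p per peak (0 to 400), an overlap length and, under a header that names a count, log2 values. These log2 values are the log2 ratio of whole IP to whole input reads plus a constant per chromosome, as read from the deposited values. Both read numbers were recovered from the 2 columns (tolerance 1%) for 98.8%, 98.5%, 99.6% and 99.6% of eligible peaks of PTBP1 replicates 1 and 2 and IGF2BP2 replicates 1 and 2. The lowest input read number seen is 1, and whether it can stand for 0 is not known. On simulated peaks with a −log10 p of at least 3, at least 99.2% came back right.

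All chromosomes were put on the median constant of their library, and p was recomputed. Peaks of both replicates that shared at least 1 nt of 1 strand formed regions. The lists held 600615 and 538802 (PTBP1) and 362700 and 341305 peaks (IGF2BP2). For density, limma 3.58.1 ran with a trend in R 4.3.3, Benjamini-Hochberg adjusted at 0.05. On simulated peaks it found 89% of 200 genes changed 4-fold. Those peaks were drawn without added spread between replicates, so this share does not measure its power in these libraries. Alternatives were the pseudocount, the filter, scaling by trimmed means (TMM), peak depth, covered nucleotides, stricter bars and left-out replicates. Members and lists were chosen with earlier results of these data known. All 9 members are named, and of the wider list the 2 highest and 2 lowest density differences among called genes. Site sequences are not analysed here.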

Additional observations from a re-analysis of the deposited data

How the results depend on the processing

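Of 88 values of single members under the alternatives, 71 kept direction and call, 7 gained a call (BTRC, MARCKSL1 and CTNNB1 with at least 10 IP reads, BTRC, MARCKSL1 and CD44 with covered nucleotides, and PEG10), 4 lost it and 6 reversed. The count of genes called in peak density, 3782, ranged from 2267 to 6388 when 1 library was left out, a single library then being assumed to vary like the others. It was 2267 and 2473 without PTBP1 replicates 1 and 2, and 6388 and 6097 without IGF2BP2 replicates 1 and 2. With peaks of at least 10 IP reads 4071 genes were called, 68.0% of them higher in PTBP1 against 50.8% before. That setting leaves out peaks without recovered reads, among them 3 and 2 ACTB peaks of the IGF2BP2 libraries at the −log10 p limit. It also leaves out peaks with a −log10 p of 0, which number 84 and 67 among the members' PTBP1 peaks and 21 and 21 among those of IGF2BP2. ACTB kept 29 of 37 and 31 of 43 PTBP1 peaks, and 17 and 16 of 20 IGF2BP2 peaks. The reversed values were ACTB at -1.44 (at least 10 IP reads) and -0.93 (covered nucleotides), CTNNB1 at 0.11 (covered nucleotides) and 0.057 (without IGF2BP2 replicate 2, in a range of -0.24 to 0.057 over left-out libraries), LAMB2 at 0.34 (at least 10 IP reads) and PEG10 at -0.38 (without IGF2BP2 replicate 2). PEG10 was called at 2.70 without IGF2BP2 replicate 1. LAMB2 also lost its call with no filter on peaks (limma adjusted p = 0.0702). For these changes the cause was not tested.

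The stricter bar, a log2 of 4 and a −log10 p of 5, left enriched regions in 1 member for PTBP1 and 3 for IGF2BP2, by its construction. The difference in 3′ UTR share, -7.24 points, moved to -11.6 with peaks of at least 10 IP reads and to -41.4 with enriched peaks. The shares of peaks found again were 82.8%, 88.1%, 86.5% and 87.5% with at least 10 IP reads.

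Libraries of the same number share only that number: their deviations from the group means correlated at -0.0016 over 15145 genes. With the replicate block 4763 genes were called. Of the enriched IGF2BP2 peaks of the members, 12 of 26 and 9 of 19 rest on 1 input read, which limits the precision of their log2.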
